A study of Mus musculus with 66 samples.

Results

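Heterotrimeric G proteins and the enzymes and scaffolds of cyclic nucleotide signalling were followed over age, diet and sex in the mouse cerebellum. Members were taken by gene symbol, from probes with a single symbol: those beginning with Gna, Gnb or Gng (the alpha, beta and gamma subunits), Rgs, Adcy, Prkar, Prkac, Prkc or Akap, or with Pde and a digit. This gave 34 genes on 41 probes, out of 4209 genes on 4875 probes with 1 symbol and 8448 probes in all. The probes of a gene were averaged, and no gene was removed for low signal, so all 34 members entered every test.

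Cerebella of 66 C57BL/6 mice were measured, each on its own nylon filter of cDNA probes hybridized with radiolabelled cDNA. Mice on the ad libitum diet (AL) were 17-21 days (2 males, 3 females), 33-44 days (3 males, 2 females), 6 months (5 and 5), 16 months (5 and 5) or 24 months old (4 and 5). Mice on calorie restriction (CR) were 6 months (4 males, 5 females), 16 months (5 and 5) or 24 months old (3 and 5). All mice had the same strain background, and no transgene or drug was given in the labels. The restricted males of the oldest cohort were all 673 days old, whereas its AL males were 719 to 743 days old, so age and diet cannot be told apart in these males.

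Values were Z scores: the probe signals of each filter had been given a mean of 0 and an SD of 1. A difference of 1 is therefore 1 SD of the probes of a filter, and it cannot be turned into a fold change. Of the 66 arrays, 3 had a median correlation with the other arrays under 0.9 (0.695, 0.701 and 0.82) and were left out: male 16 months CR replicate 2, female 16 months CR replicate 2 and female 24 months CR replicate 2. The 63 arrays used had correlations of 0.921 or more, with a median of 0.968. Of 7 listed Purkinje cell markers 2 were on the filter, Car8 at a mean Z score of 0.84 and Calb1 at -0.015, whereas 0 of 8 granule cell markers, 0 of 7 oligodendrocyte markers and 0 of 4 forebrain markers were, so the tissue label could be checked only in part. The microglial marker C1qa was at -1.50, and the summed level of 4 meningeal markers ranged from -0.505 to 1.09 over the mice used, with overlapping ranges in all cohorts. In these whole-tissue samples, fewer cells of a type and less RNA per cell cannot be told apart.

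G proteins carry signals from receptors in the membrane to enzymes inside the cell. When a receptor is activated, the alpha subunit binds GTP and separates from the beta-gamma pair, and RGS proteins end the signal by speeding GTP hydrolysis. Adenylyl cyclases make cAMP, which releases the catalytic subunits of protein kinase A (PKA) from their regulatory subunits, AKAPs tether PKA to its targets, and phosphodiesterases (PDEs) degrade cAMP and cGMP. In Purkinje cells, metabotropic glutamate receptors act through Gq and protein kinase C (PKC) in long-term depression of the parallel fibre synapse.

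The 34 members covered the steps from alpha subunit to kinase and PDE, although most families were on the filter only in part. Alpha subunits were Gnai1, Gnai2 and Gnai3 of the inhibitory type, Gnaq and Gna14 of the Gq type, and Gna12 and Gna13, which form a class of their own. Beta subunits were Gnb1 and Gnb4, and gamma subunits Gng2, Gng12 and Gng13. RGS genes were Rgs3, Rgs10, Rgs12, Rgs17 and Rgs19. The Adcy prefix brought in the cyclase Adcy9 and also Adcyap1r1, which encodes the receptor for the peptide PACAP and is no cyclase. PKA was represented by the catalytic gene Prkaca and the regulatory genes Prkar1a, Prkar2a and Prkar2b, PKC by Prkcb, Prkci and Prkcz, and the anchoring proteins by Akap2, Akap8l and Akap11. Of the PDE genes, Pde1a is activated by calcium and calmodulin, Pde4b and Pde8b degrade cAMP, Pde5a degrades cGMP, and Pde6d encodes a chaperone that binds prenylated proteins.

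Of the 34 members, 18 had a mean Z score above 0 (52.9%), against 44.5% of all 4209 genes, and their median was 0.19 against -0.12. The mean Z scores ran from -1.64 for Rgs17, -1.32 for Gnb4 and -1.30 for Prkar2b up to 1.04 for Adcyap1r1, 1.09 for Gng2 and 1.25 for Pde6d. A Z score depends on the probe as well as on the transcript, so these values describe spot signals and do not rank the genes by abundance. Both beta subunits and all 3 PKC genes lay below 0, whereas 4 of 7 alpha subunits, 2 of 3 gamma subunits, 3 of 5 RGS genes, 3 of 4 PKA genes, 2 of 3 AKAP genes and 3 of 5 PDE genes lay above it.

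**Figure D1:**
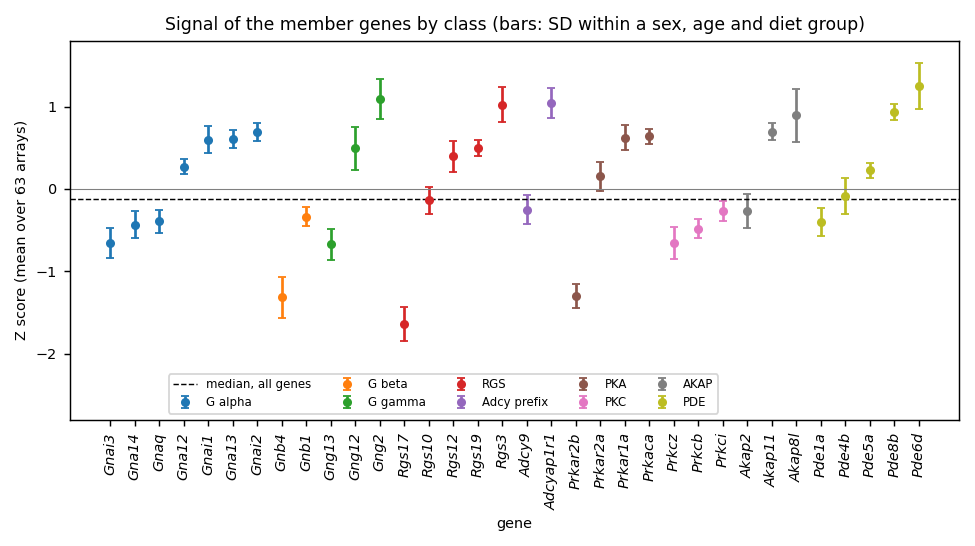
Mean Z score over the 63 arrays used (y axis) for each of the 34 member genes (x axis), coloured by class, with the SD within sex, age and diet groups as bars and the median of all genes as a dashed line. Members spread from -1.64 (Rgs17) to 1.25 (Pde6d), and all PKC and beta subunit genes lie below 0.

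The spread between mice of the same sex, age and diet had a median SD of 0.167 over the members and 0.161 over all genes. Prkaca varied least (SD 0.0902) and Akap8l most (SD 0.323). For 6 members the value was a mean of several probes, and these did not always move together. The 2 probes of Akap11 had mean Z scores of 1.65 and -0.265, and their deviations within groups correlated by 0.204 over 63 arrays. The 2 probes of Prkaca, at 0.877 and 0.398, correlated by -0.542. Of the 3 probe pairs of Gna13, 1 correlated by 0.643 and the others by 0.128 and -0.094. Each gene name therefore stands for the probes as annotated, and a low spread of an average such as that of Prkaca does not show a steady transcript.

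RefSeq promoter windows (GRCm38.p6) were matched for 31 of the 34 members, and they are given because CREB, a main transcription factor downstream of PKA, binds the cAMP response element. The letters TGACGTCA, which read the same on both strands, were found for 2 of the 31 members (6.45%) and for 549 of 27025 genes with a window (2.03%). The 30 bases around the match are printed with it in capitals, for Prkcz at chr4:155345778-155345807 on the minus strand and for Prkar1a at chr11:109650889-109650918 on the plus strand. Both matches lay in windows of transcript starts inside the annotated gene, and not at its outermost start.
Prkcz: ttgtttccgtgTGACGTCAgctcctccgta
Prkar1a: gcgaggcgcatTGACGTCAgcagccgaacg
Neither gene had an unadjusted p under 0.05 in any comparison of age, diet or sex, and a match is a description of the letters only.

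Across the 14 comparisons of age, diet and sex, 0 of the 34 members were called by limma at an adjusted p under 0.05, and 0 of 4209 genes were called either. At an unadjusted p under 0.05, 15 of 476 member tests passed (3.15%), against 3.48% of the tests over all genes. The smallest adjusted p of a member was 0.138, for Gna12 between 33-44 and 17-21 days, and the next comparison's smallest was 0.429. In the 12 comparisons of 2 cohorts or of a juvenile with an adult cohort, the lowest and highest mice of the groups overlapped or met for every member. Over all genes, the groups did not overlap for 19 genes between 33-44 and 17-21 days (0.451%), for 2 between 6 months AL and 17-21 days (0.0475%) and for 0 in the other comparisons, so 0 of 34 members is near the background. The members that led each comparison are described here with their values, as the largest differences measured and not as changes.

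**Figure D2:**
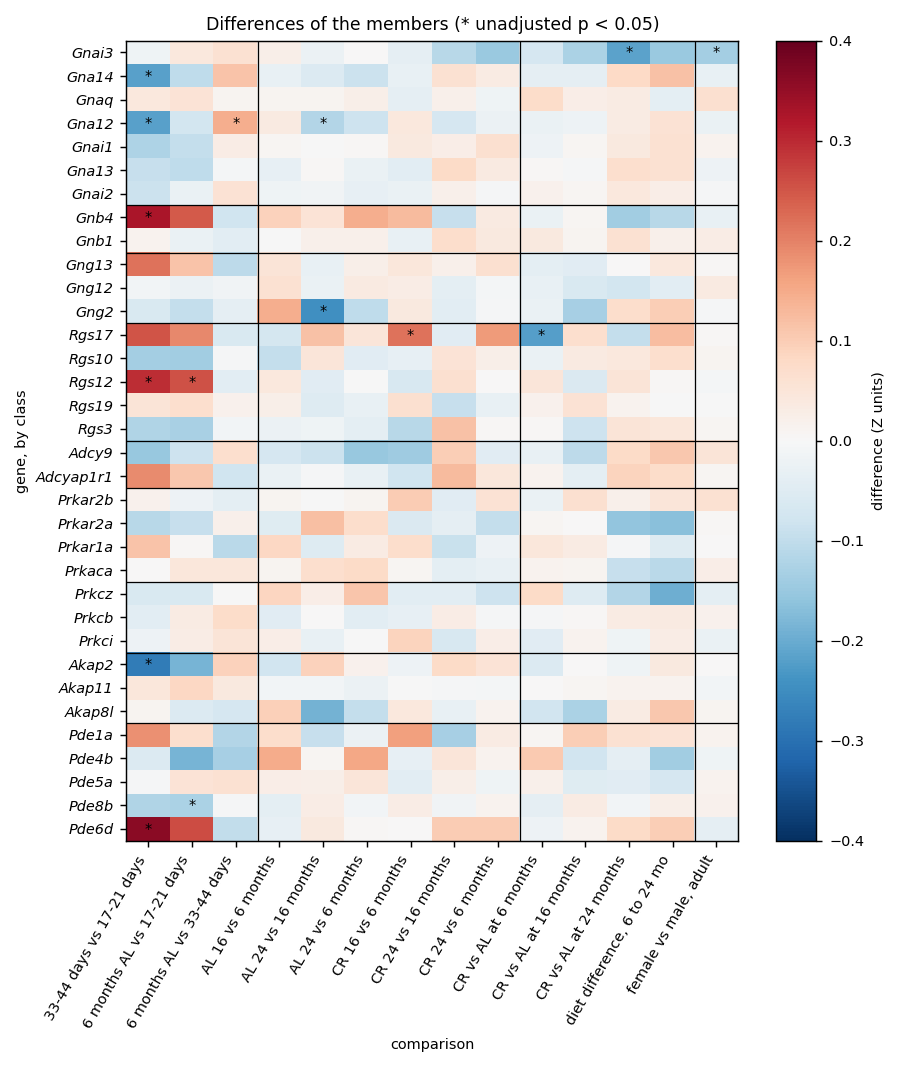
Differences in Z units (colour) of the 34 members (y axis, by class) in the 14 comparisons (x axis), with an asterisk at an unadjusted limma p under 0.05. The marks number 15, of which 8 are in the comparisons with mice of 17-21 days, and 0 passed an adjusted p under 0.05.

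With the AL diet, Gna12 and Gng2 led the members between 16 and 24 months, whereas no member reached an unadjusted p under 0.05 between 6 and 16 months. Between 16 and 6 months 0 members were called (0.0% of genes called), 0 had an unadjusted p under 0.05 (1.47% of genes), and 0 met the criteria used in the study (0.095% of genes). Those criteria, applied here with limma's p, were a Z-ratio (the difference divided by the SD of the differences over all genes) of 1.5 or more in size, a mean Z score above 0 and an unadjusted p under 0.05. The median difference of the members was 0.011 against 0.008 over all genes, and the largest was 0.147 for Pde4b. Half-widths of the 95% intervals had a median of 0.149 Z units and ran from 0.0881 to 0.278. A difference smaller than a member's half-width could not be told from 0 even at an unadjusted p. To be called at an adjusted p over all genes, a difference had to be larger still.

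Between 24 and 16 months with AL, the alpha subunit gene Gna12 and the gamma subunit gene Gng2 were lower and led the members. In the main test 0 members were called (0.0% of genes), while 2 had an unadjusted p under 0.05 (5.88%, against 4.04% of genes). Gng2 alone met the study criteria (0.665% of genes met them).

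Gng2 at 16 months lay between 1.11 and 1.33 with a median of 1.23 (n = 10), and at 24 months between 0.68 and 1.25 with a median of 0.98 (n = 9). The 16 month mice were close together (SD 0.0724), and the 24 month mice were spread (SD 0.241) from well below them to within their range. The difference was -0.25 ± 0.107 (SE; 95% interval -0.461 to -0.031; limma's adjusted p = 0.997). Its size was -0.366 in females and -0.126 in males, and the difference between the sexes was not tested. Gng2 was lower at 24 months in 4 of 5 array sets (runs of array numbers, described at the end), and without male 24 months AL replicate 1 the difference was -0.19 and its unadjusted p was above 0.05. With the array set as a block in the model, the difference was -0.278 ± 0.0948 (SE; limma's adjusted p = 0.548).

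Gna12 lay between 0.16 and 0.41 with a median of 0.325 at 16 months and between 0.06 and 0.45 with a median of 0.24 at 24 months. A female had the highest value of the 24 month group, above all mice of 16 months. The difference was -0.12 ± 0.0461 (SE; 95% interval -0.21 to -0.025; limma's adjusted p = 0.997), and Gna12 was lower in 4 of 5 array sets. With the array set as a block the difference was -0.121 ± 0.0406 (SE; limma's adjusted p = 0.548). Prkar2a, a regulatory subunit of PKA, came next, with medians of 0.085 at 16 and 0.30 at 24 months and an interval that held 0 (-0.034 to 0.278). In the fit with that block, Prkar2a had an unadjusted p under 0.05.

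Between 24 and 6 months with AL, 0 members were called (0.0% of genes), 0 had an unadjusted p under 0.05 (2.54% of genes) and 0 met the study criteria (0.451%). The cyclase Adcy9 led, with medians of -0.21 at 6 and -0.25 at 24 months and a difference of -0.15 (95% interval -0.313 to 0.0091; adjusted p = 0.999). The median difference of the 34 members was -0.001, and 17 were higher and 17 lower. Gng2, which was lower at 24 than at 16 months, had a median of 1.19 at 6 months and a range of 0.48 to 1.42 there, which held the whole range of the 24 month mice.

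**Figure D3:**
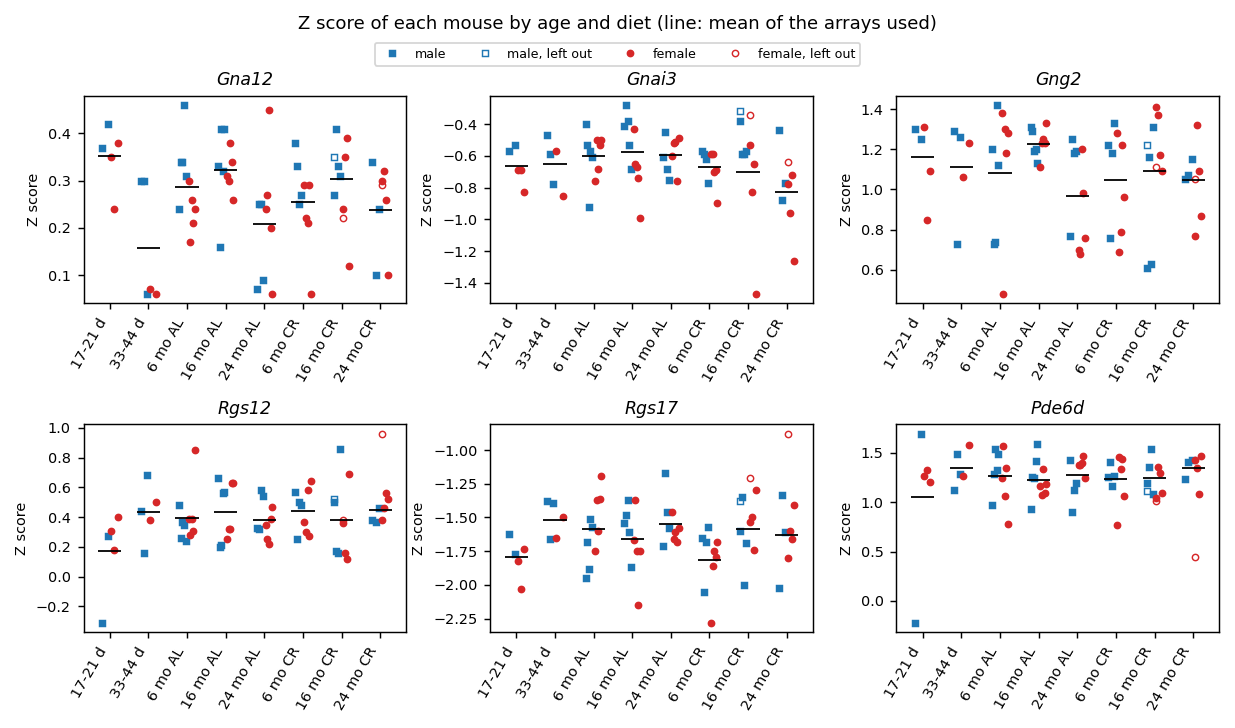
Z score of every mouse (y axis) for 6 members, by age and diet (x axis; d, days; mo, months), with males as squares, females as circles, arrays left out as open marks and the mean of the arrays used as a line. The groups overlap in every panel, and a single 17-21 day male stands far below the other mice for Rgs12 (-0.31) and Pde6d (-0.22).

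With calorie restriction other members led, above all Rgs17, and 0 of them were called. Between 16 and 6 months 0 members were called (0.0% of genes), 1 had an unadjusted p under 0.05 (2.94%, against 2.45% of genes) and 0 met the study criteria (0.475%). Between 24 and 16 months 0 members were called (0.0%), 0 had an unadjusted p under 0.05 (2.92% of genes) and 0 met the study criteria (0.451%). Between 24 and 6 months the counts were 0 called (0.0%), 0 with an unadjusted p under 0.05 (1.43% of genes) and 0 by the study criteria (0.143%). The largest member differences in the last 2 comparisons were 0.132 and 0.169 in size.

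The 1 member was Rgs17, an RGS gene that acts on inhibitory and other alpha subunits. It lay between -2.28 and -1.57 with a median of -1.75 at 6 months CR (n = 9) and between -2.0 and -1.30 with a median of -1.57 at 16 months CR (n = 8). The groups overlapped over most of their range. The difference was 0.22 ± 0.1 (SE; 95% interval 0.015 to 0.417; adjusted p = 0.999), and without male 6 months CR replicate 2 it was 0.16, with an unadjusted p above 0.05. Rgs17 has a mean Z score far below 0, so the study criteria could not take it.

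The same 6 month CR mice gave the leading member of the diet comparison at that age, which therefore is not independent of the age comparison. At 6 months 0 members were called (0.0% of genes), 1 had an unadjusted p under 0.05 (2.94%, against 0.641% of genes, or 27 genes) and 0 met the study criteria (0.0475%). Rgs17 in AL mice of 6 months lay between -1.95 and -1.19 with a median of -1.58. The CR mice were lower by 0.22 on average, with overlapping ranges (difference -0.22, 95% interval -0.409 to -0.028; adjusted p = 1.0). The difference was -0.418 in females and -0.02 in males, which was not tested as a difference between the sexes. Rgs17 was lower with CR in 4 of 5 array sets.

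At 16 months 0 members were called between the diets (0.0% of genes), 0 had an unadjusted p under 0.05 (2.49% of genes) and 0 met the study criteria (0.76%). The largest member difference was 0.133 in size. Of the 3 arrays left out, 2 were 16 month CR mice, which enter this comparison and those of 16 months with the other ages with CR. Probes were laid out in runs of 22, and on the arrays used the mean Z score of a place in the runs went from -1.207 (21st) to 0.644 (7th). On the 2 arrays of 16 month CR mice left out, the 384 probes at the 8th place had mean Z scores of -2.70 and -2.69, against 0.309 on the arrays used. Members at that place were Pde1a, Rgs19, and 1 probe each of Gna13 and Gnai2.

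Rgs19 showed what these arrays did to a member: it was -2.62 and -2.64 on them, and between 0.49 and 0.65 in the 8 other 16 month CR mice. Pde1a was -3.09 and -1.94 on them, and between -0.48 and 0.13 in the others. Prkci, at the 7th place, was 1.53 and 1.66 on them, against a mean of -0.268 on the arrays used. The probes of that place went the other way, with means of 0.403 and 0.418 on these 2 arrays and 0.644 on the arrays used. Adcyap1r1, also at the 7th place, was 0.63 and 0.43, against a mean of 1.04. With all 66 arrays, the CR minus AL difference at 16 months went from 0.057 to -0.584 ± 0.251 (SE) for Rgs19, from 0.10 to -0.349 ± 0.193 for Pde1a and from 0.015 to 0.377 ± 0.151 for Prkci, and 0 members were called.

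At 24 months 0 members were called between the diets (0.0% of genes), 1 had an unadjusted p under 0.05 (2.94%, against 2.52% of genes) and 0 met the study criteria (0.356%). This was Gnai3, an inhibitory alpha subunit, which lay between -0.76 and -0.45 with a median of -0.60 with AL (n = 9) and between -1.26 and -0.44 with a median of -0.78 with CR (n = 7). The CR mice reached lower values, and the highest CR mouse (-0.44) was close to the highest AL mouse (-0.45). The difference was -0.21 ± 0.0918 (SE; 95% interval -0.398 to -0.03; adjusted p = 0.999).

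Gnai3 was lower with CR in 5 of 5 array sets, by 0.005 to 0.64, though not every set held both sexes on both diets. In females alone, whose ages were alike on both diets, the difference was -0.354 ± 0.121 (SE; adjusted p = 0.77), and in males it was -0.074. With both sexes and the array set as a block, the difference was -0.246 ± 0.0775 (SE; limma's adjusted p = 0.988). With all 66 arrays it was -0.185 ± 0.096 (SE), and with correction for probe position -0.211 ± 0.115 (SE), both with an unadjusted p above 0.05. Without female 24 months CR replicate 5 the difference was -0.16. Its unadjusted p was also above 0.05 without male 24 months CR replicate 2. The next members were Prkaca and Prkar2a, the catalytic and a regulatory subunit of PKA, whose medians were 0.73 and 0.30 with AL and 0.60 and 0.04 with CR. Their differences were -0.0932 (95% interval -0.193 to 0.0069) and -0.16 (95% interval -0.331 to 0.013).

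The diet difference in the change from 6 to 24 months called 0 members (0.0% of genes), 0 had an unadjusted p under 0.05 (1.09% of genes) and 0 met the study criteria (0.119%). The median over the members was 0.033 against -0.002 over all genes. Half-widths of the intervals were wider here, with a median of 0.228, and an interaction smaller than a member's half-width could not be told from 0.

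Between females and males over the 6 adult age and diet groups, 0 members were called (0.0% of genes), 1 had an unadjusted p under 0.05 (2.94%, against 1.33% of genes) and 0 met the study criteria (0.166%). Again it was Gnai3, in adult mice that include those of the diet comparison, at a median of -0.675 in 28 females (-1.47 to -0.43) and -0.59 in 25 males (-0.92 to -0.28). The lowest values were those of females, and the ranges overlapped. The difference was -0.13 ± 0.0502 (SE; 95% interval -0.236 to -0.034; adjusted p = 1.0). The female of 16 months CR at -1.47, replicate 5, was 0.64 below the next of her cohort, and without her the difference was -0.10.

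The juvenile comparisons held the most member tests with an unadjusted p under 0.05, as they did over all genes. Between 33-44 and 17-21 days 0 members were called (0.0% of genes), 6 had an unadjusted p under 0.05 (17.6%, against 13.3% of genes), and Rgs12 and Pde6d met the study criteria (4.09% of genes). Between 6 months AL and 17-21 days 0 members were called (0.0%), 2 had an unadjusted p under 0.05 (5.88%, against 10.5% of genes) and Rgs12 met the study criteria (3.71%). Between 6 months AL and 33-44 days 0 members were called (0.0%), 1 had an unadjusted p under 0.05 (2.94%, against 2.0% of genes) and Gna12 met the study criteria (0.404%). These comparisons share their mice, and each juvenile cohort had 5.

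Gna12 led the first and the last of these. In mice of 17-21 days its Z scores were 0.37 and 0.42 in males and 0.35, 0.24 and 0.38 in females, and in mice of 33-44 days they were 0.30, 0.30 and 0.06 in males and 0.07 and 0.06 in females. Of the older juveniles 3 were lower than all younger ones, and the other two lay within the younger range.

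The difference was -0.22 ± 0.0646 (SE; 95% interval -0.346 to -0.087; adjusted p = 0.138). At 6 months AL Gna12 lay between 0.17 and 0.46 with a median of 0.28, which was 0.14 above the mean of 33-44 days (95% interval 0.033 to 0.256; adjusted p = 1.0). Gna12 was lower at 33-44 days in both sexes (-0.258 in females, -0.175 in males), and a block for the array set left a difference of -0.16 ± 0.0588 (SE). Within array sets that held both ages, it was lower at 33-44 than at 17-21 days in 2 of 3 sets (-0.35 to 0.06) and higher at 6 months than at 33-44 days in 2 of 4 (-0.045 to 0.265). Each of the 3 sets held 1 mouse of each juvenile age, and these were of opposite sex. Age and sex therefore cannot be told apart within those sets.

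Rgs12, which carries an RGS domain and binds Ras and kinases as a scaffold, was -0.31 and 0.27 in the males of 17-21 days and 0.31, 0.18 and 0.40 in the females. At 33-44 days it was 0.44, 0.16 and 0.68 in males and 0.38 and 0.50 in females, and at 6 months AL it lay between 0.24 and 0.85 with a median of 0.36. Apart from the male at -0.31, the younger mice lay among the older ones. The differences were 0.29 (95% interval 0.051 to 0.539; adjusted p = 0.294) and 0.25 (95% interval 0.044 to 0.464; adjusted p = 0.429).

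That male, 17-21 days replicate 1, decided several of these values. It had the lowest or the highest value of all 63 mice for 8 members: Adcyap1r1, Akap2, Gna13, Pde4b, Pde6d, Pde8b, Rgs12 and Rgs19. Such a count was not particular to it. Male 16 months CR replicate 5 was at an end for 8 members too, and female 6 months AL replicate 2 for 7. For Pde6d the male of 17-21 days was at -0.22 and the other 62 mice between 0.77 and 1.69. For Adcyap1r1 it was at 0.19 and the others between 0.65 and 1.33.

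Its array had the lowest correlation of those used, 0.921. Without it, the 33-44 minus 17-21 day difference of Pde6d went from 0.361 to -0.117 ± 0.143 (SE), that of Adcyap1r1 to -0.068 ± 0.112 and that of Rgs12 to 0.15 ± 0.134. Without the other male of 17-21 days, replicate 2, the same array stood alone for its group, and Adcyap1r1, Pde6d and Rgs12 were called in both comparisons with 17-21 days (3 of 34 members, against 7.44% of genes at 33-44 days and 6.77% at 6 months). Adcyap1r1 then differed by 0.447 and Pde6d by 0.838 at 33-44 days (limma, adjusted p = 0.00625 and adjusted p = 4.97e-05), and the lone male was assumed to vary like the other groups.

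Gnb4, a beta subunit, was -1.55 and -1.42 in males and -1.67, -1.76 and -1.67 in females of 17-21 days. At 33-44 days it was -1.42, -1.47 and -1.19 in males and -1.12 and -1.23 in females. All 5 values but those of 2 males at 33-44 days lay above every younger mouse (difference 0.33, 95% interval 0.016 to 0.634, adjusted p = 0.356).

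Gna14, of the Gq type, was -0.18 and -0.29 in males and -0.41, -0.40 and -0.26 in females of 17-21 days. It was -0.41, -0.52 and -0.61 in males and -0.53 and -0.49 in females of 33-44 days, so the groups met at -0.41 (difference -0.22, 95% interval -0.424 to -0.0077, adjusted p = 0.36). The scaffold gene Akap2 was lower by 0.28 at 33-44 days (95% interval -0.539 to -0.018; adjusted p = 0.351), and without the male of 17-21 days replicate 1 its difference was -0.17 with an unadjusted p above 0.05. Pde8b was higher at 17-21 days (0.85 to 1.30, median 1.01) than at 6 months (0.78 to 1.08, median 0.945), a difference of -0.13 (95% interval -0.244 to -0.0081; adjusted p = 0.458) that was -0.069 without that male.

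By class, the medians of the differences are given beside those of all genes, which lay between -0.01 and 0.008 over the adult comparisons. The class medians lay between -0.03 and 0.058 for the 7 alpha subunits, between -0.032 and 0.054 for the 5 RGS genes, between -0.079 and 0.052 for the 4 PKA genes, and between -0.011 and 0.026 for the 5 PDE genes. They lay between -0.061 and 0.061 for the 3 gamma subunits, between -0.042 and 0.028 for the 3 PKC genes and between -0.056 and 0.039 for the 3 AKAP genes. The classes of 2 genes ranged further, from -0.045 to 0.082 for the beta subunits and from -0.111 to 0.111 for Adcy9 and Adcyap1r1. In the juvenile comparisons, the largest class median of 3 or more genes was -0.099, for the PDE genes between 6 months and 33-44 days, where 1 of 5 was higher. The alpha subunits had a median of -0.093 between 33-44 and 17-21 days, where 1 of 7 was higher, and the 2 beta subunits had a median of 0.17 there, both higher.

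Other genes of the path were on the filter only in small part. Of 71 genes listed for receptors, receptor kinases, other G protein regulators, phospholipase C, cAMP targets and cGMP, 10 were measured: F2r, Grk3, Grk5, Creb1, Crtc1, Crtc2, Pkig, Ppp1r1b, Gucy1a1 and Npr2. By limma 0 of the 10 were called in any comparison. An unadjusted p under 0.05 was found for 2 of them, Creb1 and its coactivator Crtc2, both lower at 33-44 than at 17-21 days (adjusted p = 0.356 and adjusted p = 0.36), a comparison in which 13.3% of genes had such a p.

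For most members the array sets differed by more than the ages, diets or sexes did. The array numbers in the labels fall into 5 runs of 12 to 14 arrays, each with about 1 mouse of each adult group. Each juvenile group was in only some of the runs, and the labels do not say how these runs were made. With the 16 groups in the model, 20 of the 34 members were called between the sets (58.8%), against 57.6% of genes, so the members were not particular in this. Rgs12 had mean Z scores of 0.412, 0.257, 0.292, 0.394 and 0.599 in sets 1 to 5 (limma's F test, adjusted p = 0.000157). Akap2 had -0.302, -0.092, -0.187, -0.282 and -0.456 (adjusted p = 0.000771). For both, the arrays of set 5 stood at 1 end and those of set 2 at the other.

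Gng13, Gng12 and Pde4b were also highest in set 5 and lowest in set 2. Deviations of member probes within groups correlated with those of the median of their place by a median of 0.442 (-0.689 to 0.848). Over all 8448 probes the median was 0.4. Rgs12 and Gng13, at the 17th place, correlated by 0.731 and 0.572, and Gng12 and Pde4b, at the 18th, by 0.748 and 0.746. What part of the differences between sets goes with the place was not tested. Akap8l had the widest fitted range of the members, 0.478 Z units, with means of 0.611 in set 2 and 1.06 in set 3. For 31 of the 34 members the fitted range between sets was wider than the largest adult difference of age, diet or sex (medians 0.205 and 0.093). Rgs17, Rgs19 and Adcyap1r1 were the exceptions. It was wider than the largest juvenile difference for 28 members, the exceptions being Adcyap1r1, Gna12, Gnb4, Pde6d, Pde8b and Rgs17. The adult groups as measured were spread almost evenly over the sets, but the 3 arrays left out were all of set 2. Among the arrays used, set 2 therefore held no 16 month CR mouse and no female of 24 months CR. Set 5 held 2 mice of 33-44 days and 0 of 17-21 days, and set 3 held 0 of 33-44 days and 2 of 17-21 days. With the set as a block, the 33-44 minus 17-21 day differences were 0.174 ± 0.0988 (SE) for Rgs12, -0.175 ± 0.111 for Akap2 and -0.139 ± 0.0897 for Gna14, and 1 of the 6 members, Gna12, kept an unadjusted p under 0.05. Only there did the count fall (9.22% of genes with the block). It went from 2 to 3 between 24 and 16 months AL (7.75%) and from 0 to 1 between 24 and 6 months AL (3.97%). Between the diets at 24 months it went from 1 to 2 (4.13%), and between 6 months AL and 17-21 days from 2 to 3 (10.8%). The block called 0 members in any comparison, but it called 11 genes between 6 months AL and 17-21 days, 1 between 33-44 and 17-21 days and 1 between 24 and 16 months AL.

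**Figure D4:**
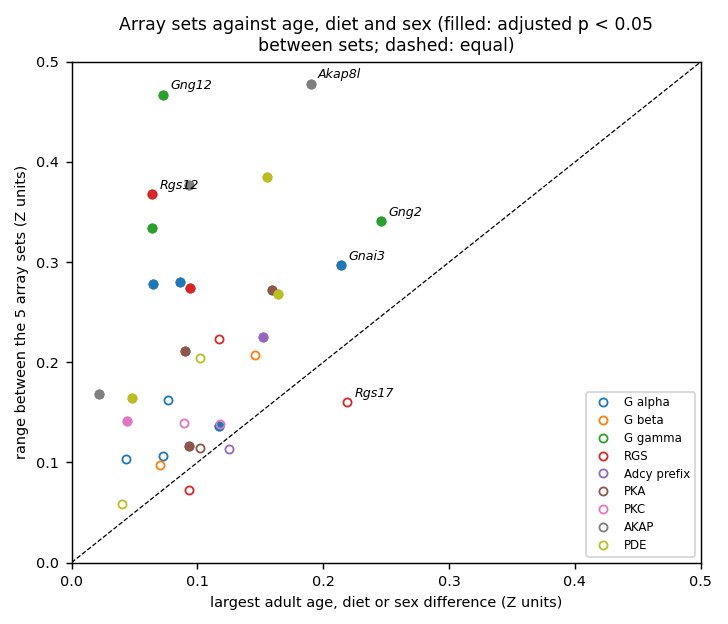
Fitted range between the 5 array sets (y axis, Z units) against the largest adult difference of age, diet or sex (x axis, Z units) for the 34 members, filled where the sets differed at an adjusted limma p under 0.05. All but 3 members lie above the dashed line of equal size.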

How the data were processed

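The deposited values were Z scores per array, which the authors computed from phosphor images of the radiolabelled filters. Use of logarithms before scaling, and the handling of background, are not stated by the sources used here. The files hold no spot quality or signal over background, so single spots could not be judged, and a shift of all probes in 1 direction cannot be seen. The number of arrays limits the precision, as do the differences between array sets and between probes of a gene. Gene symbols came from the platform annotation (8448 probes: 4875 with 1 symbol, 224 with several, 3349 with none). Each array was a different mouse.

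Differences were tested with limma 3.58.1 in R 4.3.3 on 4209 gene means, with 1 mean per sex, age and diet group (16 groups, 63 arrays, 47 residual degrees of freedom), sexes weighted equally and two-sided p values adjusted by Benjamini-Hochberg over all genes, and were called at an adjusted p under 0.05. Named genes were the 3 members of smallest p in each comparison, the members at the ends of the range of levels, members that met the study criteria and members displaced on the arrays left out. The scripts were checked on simulated data. Alternatives were all arrays, the array set as a block, correction for probe position, quantile normalization, array weights, genes above 0, single probes, the study criteria, 1 sex alone and each mouse left out. The members, gene lists and arrays left out were chosen with earlier results of these data known, and the test between array sets and the fits of males alone were added after the values were seen. The analysis of variance of the study was not repeated.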

Additional observations from a re-analysis of the deposited data

Results flagged for a closer look

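Single mice far from the rest of their age and diet cohort were found in 12 of 168 combinations of cohort and member (7.14%), over 21 named members. Chance alone gives about 1 in 20 for a single combination. The combinations share their mice, the cohorts pool both sexes, and the members were named by their p values in the same data. The percentage therefore cannot be compared with that rate, and no excess over chance can be read from it. Of the 12, 4 were the same mouse, female 16 months CR replicate 5: Gnai3 at -1.47, Pde1a at 0.13, Prkaca at 0.84 and Prkcz at -1.32, against cohort medians of -0.59, -0.32, 0.632 and -0.60. Its array correlated with the others by 0.922. Male 17-21 days replicate 1 had Adcyap1r1 at 0.19, against a median of 1.19.

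The other 7 were single values: Pde8b at 0.63 in male 16 months CR replicate 1, Prkaca at 0.55 in female 24 months AL replicate 3, Prkar1a at 0.24 in female 6 months AL replicate 2, Prkcz at 0.06 in female 6 months CR replicate 2, Rgs12 at 0.85 in female 6 months AL replicate 5, Rgs17 at -1.17 in male 24 months AL replicate 2, and Rgs19 at 0.70 in female 33-44 days replicate 1. What set these values apart was not tested.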

How the results depend on the processing

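The count of members called was 0 in all 14 comparisons under all arrays, the array set as a block, position correction, quantile normalization, array weights, genes above 0 and single probes, and with females or males alone where those were run. By the study criteria, which do not adjust p, it was 1 between 24 and 16 months AL, 2 between 33-44 and 17-21 days, 1 between 6 months AL and 17-21 days and 1 between 6 months AL and 33-44 days. Leaving out 1 mouse at a time gave 0 to 3 members for each of the first 2 comparisons with mice of 17-21 days, the 3 without male 17-21 days replicate 2, and 0 in the other comparisons. The 3 arrays left out turned the direction of 4 named differences when put back: Pde1a between 16 and 6 months CR (-0.285), between 24 and 16 months CR (0.28) and between the diets at 16 months (-0.349), and Rgs19 between 24 and 16 months CR (0.547). Of 247 values of named differences under these alternatives, without those that leave out a mouse and with 1 sex alone for 3 comparisons with CR mice of 24 months, 243 kept their direction and their side of the threshold. With each mouse left out in turn, 42 of 42 named differences kept their direction and 2, both of Rgs12, passed the threshold without male 17-21 days replicate 2. Of 39 named differences taken in each sex, 1 had opposite signs, Gna12 between 24 and 6 months AL (0.008 in females, -0.173 in males). With the array set as a block, genes called went from 0 to 11, 1 and 1 in 3 comparisons, and members stayed at 0. Counts at an unadjusted p under 0.05 were less stable, and 35 of 104 moved, either by over 1.5 times or to or from 0, which can be a change of 1 member. Array weights stopped before converging. No paired analysis was possible because the labels give no replicate numbers that pair mice across groups, and the array set served as the block. Males of 17-21 days numbered 2 and females of 33-44 days 2, which limits the juvenile comparisons.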
